A study of Mus musculus with 10 samples.

Results

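Mitochondrial ribosomal proteins build the ribosome that works inside mitochondria. This ribosome reads the few messenger RNAs of the mitochondrial genome and makes the membrane-embedded core subunits of the respiratory chain and of ATP synthase. Its RNA is transcribed in the mitochondrion, but all of its proteins are encoded in the nucleus, translated in the cytosol and imported. The large subunit, whose genes are named Mrpl, holds the site where peptide bonds form, and the small subunit, named Mrps, holds the site where the messenger RNA is decoded. Brown adipose tissue, the heat-producing fat of rodents, is packed with mitochondria and depends on this ribosome for its respiratory chain. SIRT3 is a mitochondrial deacetylase, and the large subunit protein MRPL10 is one of its reported substrates.

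Members were the genes whose platform annotation symbol was Mrpl or Mrps followed by a digit. There were 76 of them among 18193 genes tested, 47 of the large and 29 of the small subunit, and the brightest probe set, by the mean of the 10 arrays, stood for each gene. All 76 had a mean signal above the array medians. A further 2 genes of this name, Mrpl30 and Mrpl53, were read only by probe sets shared with another gene and were left out. The symbols do not always give the place of the protein: in the structures of mammalian mitoribosomes the products of Mrps18a and Mrps30 sit in the large subunit, and the product of Mrps36 is now assigned to the 2-oxoglutarate dehydrogenase complex.

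The arrays held brown adipose tissue RNA of 5 samples labelled SIRT3 KO and 5 labelled WT, 1 array per sample. All came from untreated littermate mice of about 1 year on a 129 background. Neither the way Sirt3 was inactivated nor the sex of the mice is given in the sources used here, and the labels do not say whether tissue of several animals was pooled. Deposited values were log2 signals from RMA, which subtracts background, gives all arrays the same distribution and combines the probes of a set, so a shift shared by most transcripts would not be seen. P-values set the difference between the groups against the spread between these samples, which may be partly technical.

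The 10 arrays correlated with each other at 0.988 to 0.997 across probe sets, and their median signals lay between 5.58 and 5.61. Sirt3 itself, read by 1 probe set, was not lower in the arrays labelled KO, at 10.32 ± 0.07 in KO and 10.13 ± 0.10 in WT (SD, n = 5 each), so directions below refer to the labels. Its mean was higher in KO by 0.19 ± 0.061 log2 units (SE, unadjusted p of limma 0.0096, adjusted p 0.914). Whether that probe set lies in the deleted part of the gene is not known here. Of the 7 measured brown adipocyte markers, Ucp1 and Elovl3 among them, the mean signal per array was 10.86 to 11.21 in KO and 10.89 to 11.60 in WT. Of these markers 6 were lower on average in KO, with 0 past the test and a median difference of -0.082, among them Elovl3, a fatty acid elongase, at -0.63 ± 0.35 (KO minus WT log2 difference ± SE). Markers of skeletal muscle varied widely: the mean signal of 15 such genes was 5.30 to 11.40 in KO and 7.71 to 11.78 in WT, and it lay below the array medians in KO 1 and KO 3. In bulk tissue, fewer cells of a type and less RNA per cell cannot be told apart.

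No mitochondrial ribosomal protein gene passed the test between KO and WT. By limma, 0 of 76 members had an adjusted p under 0.05, against 0% of all genes, and the smallest adjusted p of any member was 0.914. The means nonetheless leaned one way: 61 of 76 members (80.3%) were lower on average in KO, where 56.1% of all genes tested were lower. The median difference of the members was -0.053 log2 units and that of all genes was -0.013. Of the members, 75 were among the 4548 genes with a mean signal of at least 8.23; of those genes 59.9% were lower, with a median difference of -0.021. Without adjustment, 3 members (3.95%) were lower at p under 0.05, against 2.83% of all genes, and 0 members higher, against 1.85%. In 0 of 76 members did all KO values lie on one side of all WT values, against 0.423% of all genes for KO below WT and 0.203% for KO above WT.

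**Figure D1:**
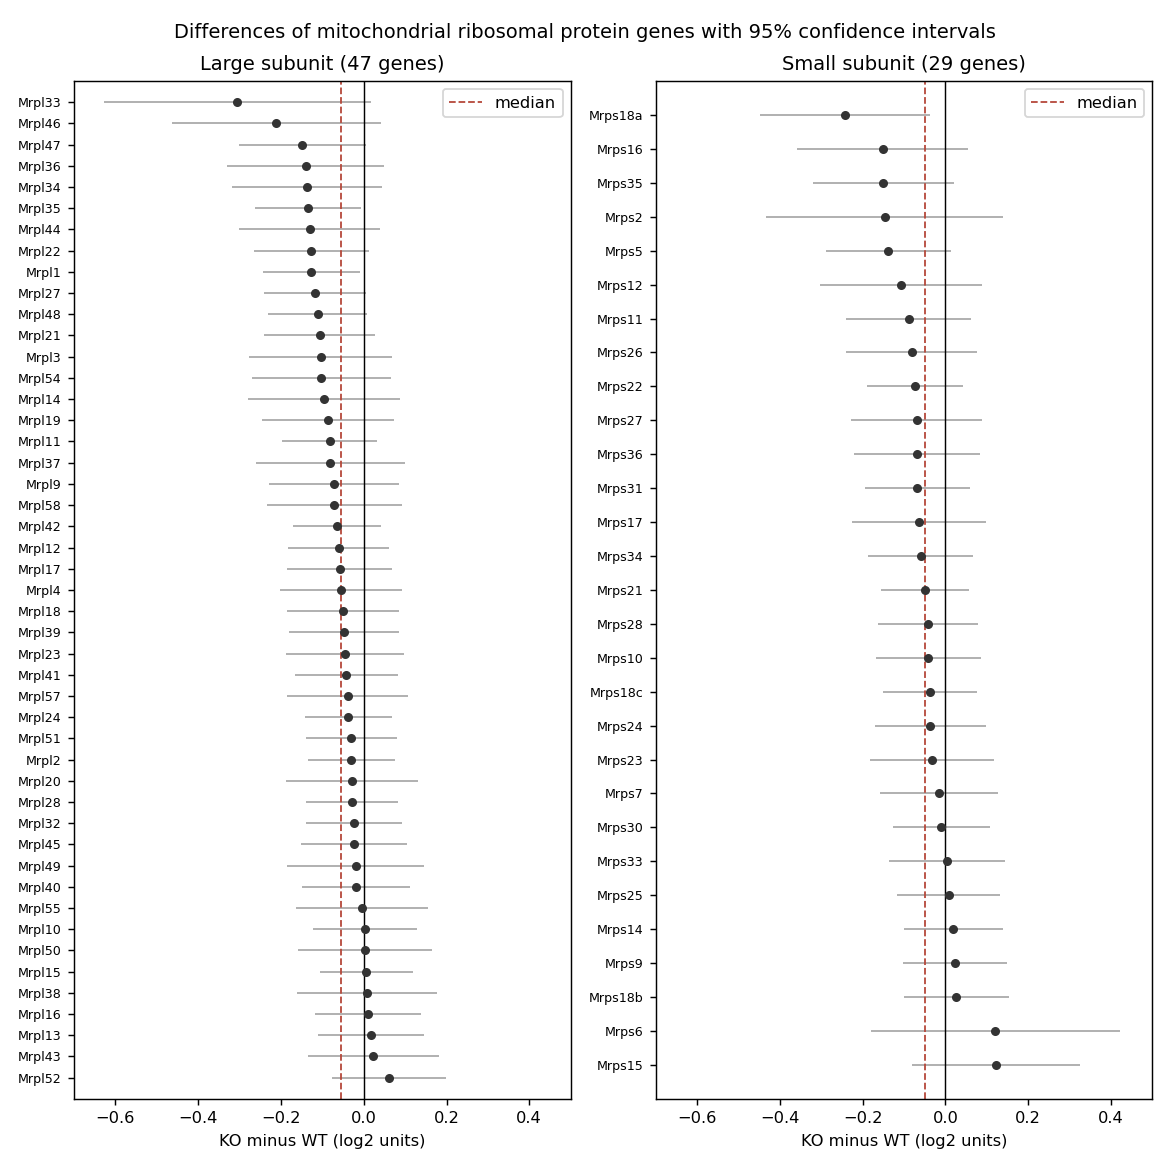
KO minus WT differences in log2 units with 95% confidence intervals from the limma fit for the 47 large and 29 small subunit genes, and the median of each subunit as a dashed line. Differences run from -0.31 (Mrpl33) to 0.06 (Mrpl52) in the large and from -0.24 (Mrps18a) to 0.12 (Mrps15) in the small subunit, and all but 3 intervals (Mrps18a, Mrpl1, Mrpl35) include 0.

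The large and the small subunit gave nearly the same values. In the large subunit 39 of 47 genes (83%) were lower in KO, with a median difference of -0.055 and quartiles of -0.105 and -0.024. In the small subunit 22 of 29 (75.9%) were lower, with a median of -0.049 and quartiles of -0.082 and -0.0096. Large minus small, the medians differed by -0.0053, a difference that was not tested. With Mrps18a and Mrps30 counted in the large subunit and Mrps36 in neither, an assignment added after the data were seen, 41 of 49 large and 19 of 26 small subunit genes were lower, with medians of -0.055 and -0.046. Array by array, the mean of the large subunit, taken after subtracting from each gene its own mean over the 10 arrays, differed from that of the small subunit by -0.027 to 0.016 in KO and by -0.023 to 0.024 in WT.

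The promoters of the 3 genes with the smallest p and of a pair of members that start side by side are shown here as examples. Whether their letters relate to how members varied across arrays was not tested. Sequences are from RefSeq, build GRCm38.p6, 300 bases each with 250 before the start of the gene and 50 from the start onward, written 5′ to 3′ on the strand of the gene. Capitals mark the letters CCGGAAG or CTTCCGG, a core bound by ETS factors such as GABP, an activator of nuclear genes for mitochondrial proteins. They also mark AAGATGGC or GCCATCTT, a core of YY1 sites.
Mrps18a chr17:46110754-46111053 (+ strand): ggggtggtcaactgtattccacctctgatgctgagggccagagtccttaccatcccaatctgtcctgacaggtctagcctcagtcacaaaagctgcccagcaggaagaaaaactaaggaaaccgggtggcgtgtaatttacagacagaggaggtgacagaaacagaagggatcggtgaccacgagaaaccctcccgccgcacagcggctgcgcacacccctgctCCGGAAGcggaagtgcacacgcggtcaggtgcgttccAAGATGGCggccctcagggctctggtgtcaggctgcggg
Mrpl35 chr6:71823735-71824034 (- strand): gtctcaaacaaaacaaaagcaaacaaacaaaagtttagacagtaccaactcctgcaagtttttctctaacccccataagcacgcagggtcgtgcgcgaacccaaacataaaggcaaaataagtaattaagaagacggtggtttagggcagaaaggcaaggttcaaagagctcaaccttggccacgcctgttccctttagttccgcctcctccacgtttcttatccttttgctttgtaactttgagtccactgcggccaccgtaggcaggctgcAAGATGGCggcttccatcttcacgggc
Mrpl1 chr5:96209865-96210164 (+ strand): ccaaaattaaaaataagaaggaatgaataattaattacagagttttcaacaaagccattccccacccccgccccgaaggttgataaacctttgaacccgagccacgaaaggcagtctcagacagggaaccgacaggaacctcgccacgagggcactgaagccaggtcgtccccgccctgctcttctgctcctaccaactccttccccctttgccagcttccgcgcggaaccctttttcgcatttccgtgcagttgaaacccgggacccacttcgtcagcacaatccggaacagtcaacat
Mrps11 chr7:78782881-78783180 (+ strand): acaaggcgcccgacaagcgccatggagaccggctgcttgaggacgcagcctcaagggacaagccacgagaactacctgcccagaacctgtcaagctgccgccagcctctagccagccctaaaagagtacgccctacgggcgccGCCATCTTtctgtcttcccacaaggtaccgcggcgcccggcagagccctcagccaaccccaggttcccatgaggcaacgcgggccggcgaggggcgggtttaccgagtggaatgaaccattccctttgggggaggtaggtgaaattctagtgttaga

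The Mrps18a window holds CCGGAAG at -26, counted from the start of the gene, and AAGATGGC at 12. The Mrpl35 window holds AAGATGGC at 24 and the Mrpl1 window holds neither. A promoter window was found for 67 of the 76 members. The ETS core, searched on both strands, was in 25 of these (37.3%), 14 of 41 large and 11 of 26 small subunit genes, and in 15% of the 14368 tested genes with a window. The YY1 core was in 12 members (17.9%), 6 in each subunit, and in 4.09% of the tested genes. It lay at 12 to 37, after the start, in Mrps18a, Mrpl35, Mrpl42, Mrpl37, Mrps27, Mrps24, Mrpl49 and Mrps7. In Mrpl36, Mrps11, Mrps12 and Mrpl32 it lay before the start. AAGATGGC contains ATG, the letters of a start codon, so matches at a translation start count here too. Translation starts were not mapped. The palindromic site of NRF1, another activator of mitochondrial genes, was in 3 members (4.48%), all of the large subunit, and in 1.75% of tested genes. With 1 free base, it was in 12 members (17.9%) and in 8.63%. The SP1 letters GGGGCGGGG were in 19.4% of members and 20.4% of tested genes, and TATAAA was in 7.46% and 11.5%. These matches are letters in a window and no measure of binding.

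The Mrps11 window holds GCCATCTT at -107, which is before the start of Mrps11 but after the start of Mrpl46 on the other strand. The start of Mrpl46 is in this window too, and Mrpl46 is transcribed in the opposite direction from 42 bases away. Members often had such a neighbour: 20 of 67 (29.9%) started within 300 bases of a gene on the other strand, pointing away from it, against 12.7% of tested genes with a window. Apart from that pair, the closest partners with a gene name other than a clone name were Ighmbp2, 32 bases from Mrpl21, and Eme1, 48 bases from Mrpl27. Mrpl43 starts 116 bases from Twnk, the helicase of the mitochondrial genome, and Mrps12 starts 147 bases from Sars2, the mitochondrial seryl-tRNA synthetase; these examples were chosen by hand, and the functions of the partners were not counted. For the pair of members, Mrpl46 differed by -0.21 ± 0.12 and Mrps11 by -0.089 ± 0.069 (KO minus WT log2 difference ± SE, here and below).

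Among large subunit genes, Mrpl1 had the smallest p. It encodes the protein of the L1 stalk, which handles spent tRNA. Its log2 signals were 7.65, 7.66, 7.72, 7.58 and 7.58 in KO arrays 1 to 5, against 7.81, 7.74, 7.87, 7.68 and 7.72 in WT arrays 1 to 5. The highest KO value, of KO 3, lay above the lowest WT value, of WT 4, so the groups overlapped. The difference was -0.13 ± 0.054 (95% confidence interval -0.24 to -0.0088, unadjusted p of limma 0.037, adjusted p 0.914).

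Mrpl35 had log2 signals of 10.77, 10.79, 10.81, 10.58 and 10.70 in KO arrays 1 to 5, against 10.81, 10.78, 10.89, 10.90 and 10.94 in WT arrays 1 to 5. All 5 KO values lay below the WT mean, with KO 4 lowest, and KO 2 and KO 3 lay above WT 2. The difference was -0.13 ± 0.059 (95% confidence interval -0.26 to -0.0053, adjusted p of limma 0.914).

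**Figure D2:**
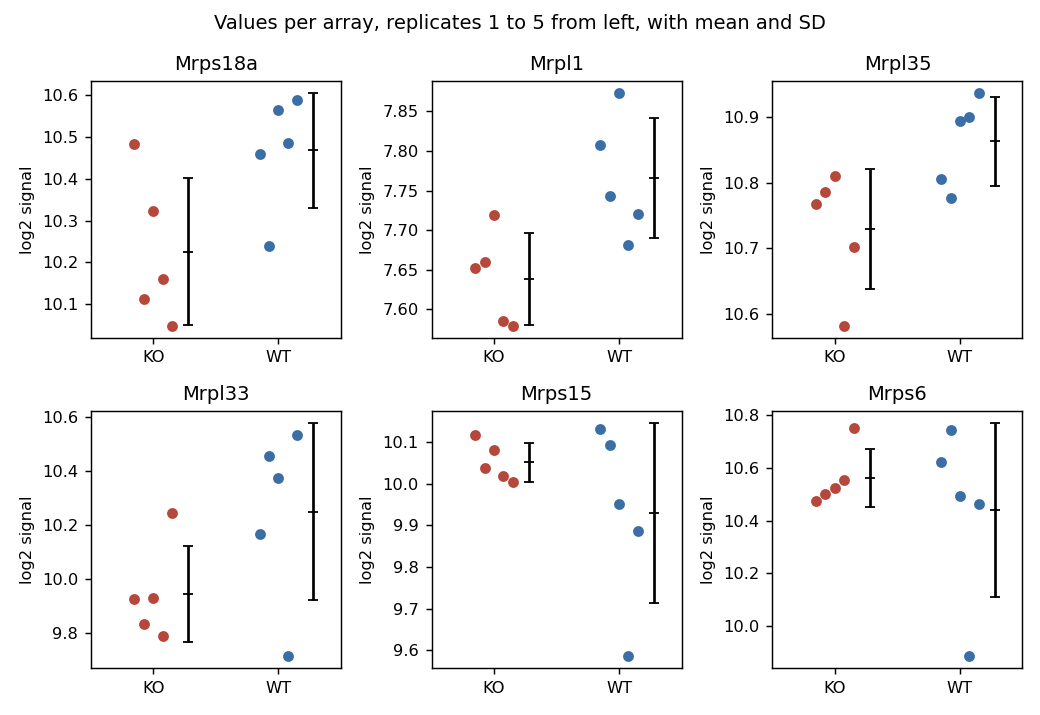
Log2 signal of 6 members in each array, replicates 1 to 5 from left to right within a group, with the mean and SD beside the points; KO is left and WT right, and each panel has its own axis. KO and WT values overlap in every panel, and WT 4 is the lowest of all 10 arrays for Mrpl33, Mrps15 and Mrps6.

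Mrpl33 had the most negative difference of all members, -0.31 ± 0.15, and also the widest spread within groups of all members. Its log2 signals were 9.92, 9.83, 9.93, 9.79 and 10.25 in KO arrays 1 to 5, against 10.17, 10.46, 10.38, 9.71 and 10.53 in WT arrays 1 to 5. The lowest value of all was a WT array, WT 4, and without that array the difference was -0.44. Mrpl46, a protein of the central protuberance, averaged 9.60 ± 0.19 in KO and 9.81 ± 0.22 in WT (SD, n = 5 each). Its KO values ran from 9.40 to 9.81 and its WT values from 9.52 to 10.06.

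The other large subunit genes with small p-values differed by amounts near 0.1. Mrpl47, the relative of a bacterial protein beside the exit of the peptide tunnel, differed by -0.15 ± 0.069, and Mrpl22, whose bacterial relative lines that tunnel, by -0.13 ± 0.064. Mrpl27, the relative of a bacterial protein that reaches toward the site of peptide bond formation, differed by -0.12 ± 0.056. Mrpl48, another protein of the central protuberance, differed by -0.11 ± 0.054, Mrpl21 by -0.11 ± 0.061 and Mrpl34 by -0.14 ± 0.083. In each of these 6 genes at least 4 of the 5 KO values lay below the WT mean. No adjusted p was below 0.914.

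The intervals of Mrpl44, Mrpl3, Mrpl12 and Mrpl10 included 0. Mrpl44, an RNase III-like protein in which human mutations cause cardiomyopathy, averaged 9.93 ± 0.11 in KO and 10.06 ± 0.14 in WT (SD, n = 5 each), a difference of -0.13 ± 0.078. Mrpl3, which lies near the site of peptide bond formation, differed by -0.10 ± 0.079, and Mrpl12, the stalk protein that recruits translation factors, by -0.06 ± 0.056 (95% confidence interval -0.18 to 0.062). Mrpl10, the SIRT3 substrate, was named for that role after the values were seen. Its log2 signals were 10.70, 10.52, 10.55, 10.46 and 10.52 in KO arrays 1 to 5, against 10.47, 10.52, 10.61, 10.53 and 10.62 in WT arrays 1 to 5. KO 1 was highest and KO 4 lowest of all 10 arrays, and the difference was 0.0027 ± 0.057 (95% confidence interval -0.12 to 0.13).

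Among genes named for the small subunit, Mrps18a had the smallest p of all members. Its log2 signals were 10.48, 10.11, 10.32, 10.16 and 10.05 in KO arrays 1 to 5, against 10.46, 10.24, 10.56, 10.49 and 10.59 in WT arrays 1 to 5. KO 1 and KO 3 lay inside the WT range, while KO 2, KO 4 and KO 5 lay below every WT array. The difference was -0.24 ± 0.093 (95% confidence interval -0.45 to -0.037, unadjusted p of limma 0.025, adjusted p 0.914). Intervals of its 2 paralogs included 0: Mrps18b averaged 10.03 ± 0.061 in KO and 10.003 ± 0.094 in WT (SD, n = 5 each), a difference of 0.026 ± 0.058, and Mrps18c 10.26 ± 0.049 in KO and 10.30 ± 0.073 in WT (SD, n = 5 each), a difference of -0.037 ± 0.052. Differences between the paralogs were not tested.

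Mrps5, the relative of a bacterial protein at the messenger RNA entry, had log2 signals of 9.05, 8.88, 8.98, 8.77 and 8.87 in KO arrays 1 to 5, against 8.999, 8.96, 9.04, 9.02 and 9.22 in WT arrays 1 to 5. KO 1 lay among the WT values and KO 4 was lowest, and the difference was -0.14 ± 0.069. Mrps35 differed by -0.15 ± 0.077, Mrps16, in which human mutations cause a respiratory chain disease, by -0.15 ± 0.094, and Mrps2 by -0.15 ± 0.13. Mrps12, a protein of the decoding site, differed by -0.11 ± 0.089 and Mrps22, another gene with human disease mutations, by -0.073 ± 0.053 (95% confidence interval -0.19 to 0.043). None of these passed the test.

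Of the 15 members with a higher mean in KO, 8 were of the large and 7 of the small subunit. Mrps15 and Mrps6 had the most positive differences. The log2 signals of Mrps15 were 10.12, 10.04, 10.08, 10.02 and 10.004 in KO arrays 1 to 5, against 10.13, 10.09, 9.95, 9.59 and 9.89 in WT arrays 1 to 5. All KO values lay above the WT mean, yet WT 1 was the highest of all, and the difference of 0.12 ± 0.092 turned to -0.0070 without WT 4 and WT 5. Mrps6 had log2 signals of 10.48, 10.50, 10.52, 10.55 and 10.75 in KO arrays 1 to 5, against 10.62, 10.74, 10.49, 9.88 and 10.46 in WT arrays 1 to 5, with WT 4 lowest. Its difference was 0.12 ± 0.14, and without WT 4 it was -0.018. Mrpl52 differed by 0.061 ± 0.063 and Mrps9 by 0.024 ± 0.057, each with overlapping groups.

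Where a gene had several probe sets, the dimmer ones did not always give the same sign. Of the 76 members, 34 had 1 probe set, 19 had several of the same sign and 23 had several of both signs. For Mrpl1, another probe set gave -0.091 and the dimmest, with a mean signal of 3.72 against 7.70 for the one used, gave 0.075. For Mrpl35 another gave -0.061 and the dimmest, at a mean signal of 6.66, gave 0.049. The other probe set of Mrpl33, at a mean signal of 4.01, gave 0.079 against -0.31 for the one used. Those of Mrpl47, at mean signals of 5.93 and 5.07, gave 0.0010 and 0.033 against -0.15. The dimmer probe sets of Mrps5 gave 0.018, -0.0086, 0.022 and -0.067 against -0.14. Mrpl44 gave -0.10 to -0.14 with all 4 of its probe sets, Mrps2 gave -0.15 and -0.14 with its 2, and Mrps6 gave 0.12 and 0.13 with its 2. Over all 156 probe sets of members, 107 were lower in KO and 49 higher, a count that includes the 76 sets used above. Of the 80 sets not used, 59 had a mean signal above the array median, and 37 of these 59 were lower. Among all genes tested, each read by its brightest set, 56.1% were lower.

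Mitochondrial ribosomal protein genes varied together across arrays within each group. After each group's mean was subtracted, the median correlation over the 2850 pairs of members was 0.488 and 87.2% of pairs were positive, while pairs drawn from every 20th gene of the table had a median of 0.0080. The drawn genes were not matched to the members in brightness, and 75 members were among the 4548 genes with a mean signal of at least 8.23. Pairs of equally bright genes were not examined. These correlations are over 10 arrays, the genes of an array share its RNA and its normalization, and they are given as a description. Pairs of large with small subunit genes had a median of 0.489, pairs within the large subunit 0.487 and pairs within the small subunit 0.494. Mrpl17 followed the mean of the other members most closely (r = 0.969), and Mrps6 (-0.252), Mrps15 (-0.060) and Mrps9 (-0.011) did not follow it. The genes outside the family most like its mean were 4931429L15Rik (r = 0.968), Nudt14 (0.958), Slc35f6 (0.956), Rnf126 (0.955) and Rmdn1 (0.951).

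**Figure D3:**
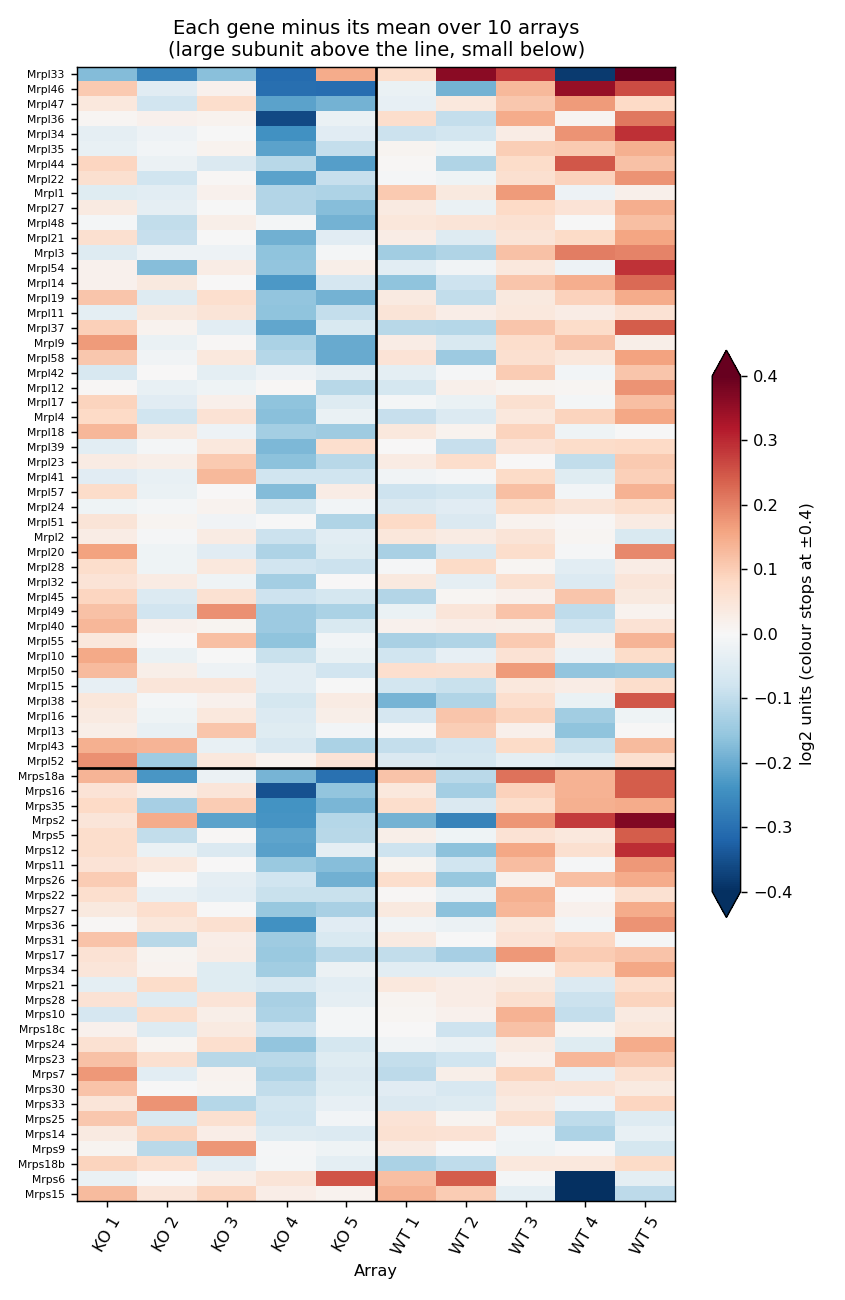
Log2 signal of each member in each array minus the gene's mean over the 10 arrays, with KO arrays left and WT arrays right, large subunit genes above the line and small subunit genes below, ordered by KO minus WT difference. Columns KO 4 and KO 5 are mostly blue (lower) and columns WT 3 and WT 5 mostly red (higher), while KO 1 is mostly red.

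The size of the difference between the groups moved with single arrays. The mean of all members, relative to each gene's own mean, was 0.052, -0.016, 0.014, -0.129 and -0.069 log2 units in KO arrays 1 to 5, against -0.014, -0.031, 0.073, 0.0089 and 0.111 in WT arrays 1 to 5. The group means were -0.030 ± 0.071 in KO and 0.030 ± 0.060 in WT (SD, n = 5 each), and the ranges overlapped. KO 4 was the lowest of the 10 arrays in 39 members (51.3%) and in 14.3% of all genes, and WT 5 was the highest in 37 members (48.7%) and in 15% of all genes. Without KO 4 the median difference of the members was -0.026 and 55 of 76 were lower. Without WT 5 the median was -0.034, and without WT 4 and WT 5 it was -0.036, with 61 of 76 lower in both.

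Brown adipocyte markers, muscle RNA and an RNA quality measure differed between arrays beside these values. The mean of the 7 brown adipocyte markers, relative to each gene's own mean, was -0.0035, 0.036, -0.318, -0.055 and -0.078 in KO arrays 1 to 5, against -0.170, -0.286, 0.135, 0.310 and 0.430 in WT arrays 1 to 5. WT 5 was the highest array for these markers and for the members, while the lowest were KO 3 for the markers and KO 4 for the members. The 15 skeletal muscle genes were all lower on average in KO, with 0 past the test, and their mean signal was 5.56, 11.40, 5.30, 11.26 and 10.20 in KO arrays 1 to 5, against 11.32, 11.78, 11.38, 9.73 and 7.71 in WT arrays 1 to 5. KO 1 and KO 3, the arrays lowest in muscle transcripts, were also the highest KO arrays for the mitoribosomal mean, and WT 5, the lowest WT array in muscle transcripts, was the highest WT array. Other arrays did not follow this order: WT 3, at 11.38 for muscle, was second highest of all for the mitoribosomal mean, and KO 2, the highest KO array in muscle transcripts, lay above KO 4 and KO 5. With the muscle mean as a covariate, the median difference of the members was -0.080, 67 of 76 were lower, and 17 of 76 had an unadjusted p under 0.05 on the lower side, against 4.89% of all genes; 0 were called after adjustment. The 3′ minus 5′ signal of the Pcx control transcript was 2.77 to 2.95 in KO and 2.96 to 3.44 in WT, without overlap. Its exact permutation p of 0.0079 is the lowest value possible with 5 arrays a group, and it was 0.040 after adjustment over 5 transcripts. Only Pcx passed among these 5. KO minus WT, 18S RNA differed by -0.15, Tfrc by -0.082, Gapdh by -0.018 and Actb, in the other direction, by 0.049. In that order, their adjusted p-values from the permutation test were 0.36, 0.36, 0.20 and 0.63, and the groups overlapped in each. An alternative chosen after seeing the data took the Pcx measure into the fit. In that fit 63 of 76 members were lower, with a median difference of -0.047, where 50.9% of all genes were lower. Because Pcx did not overlap between the groups, this fit cannot tell its part apart from that of the KO label. The part of brown adipocyte content, muscle RNA and RNA quality in the members' differences was not tested.

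**Figure D4:**
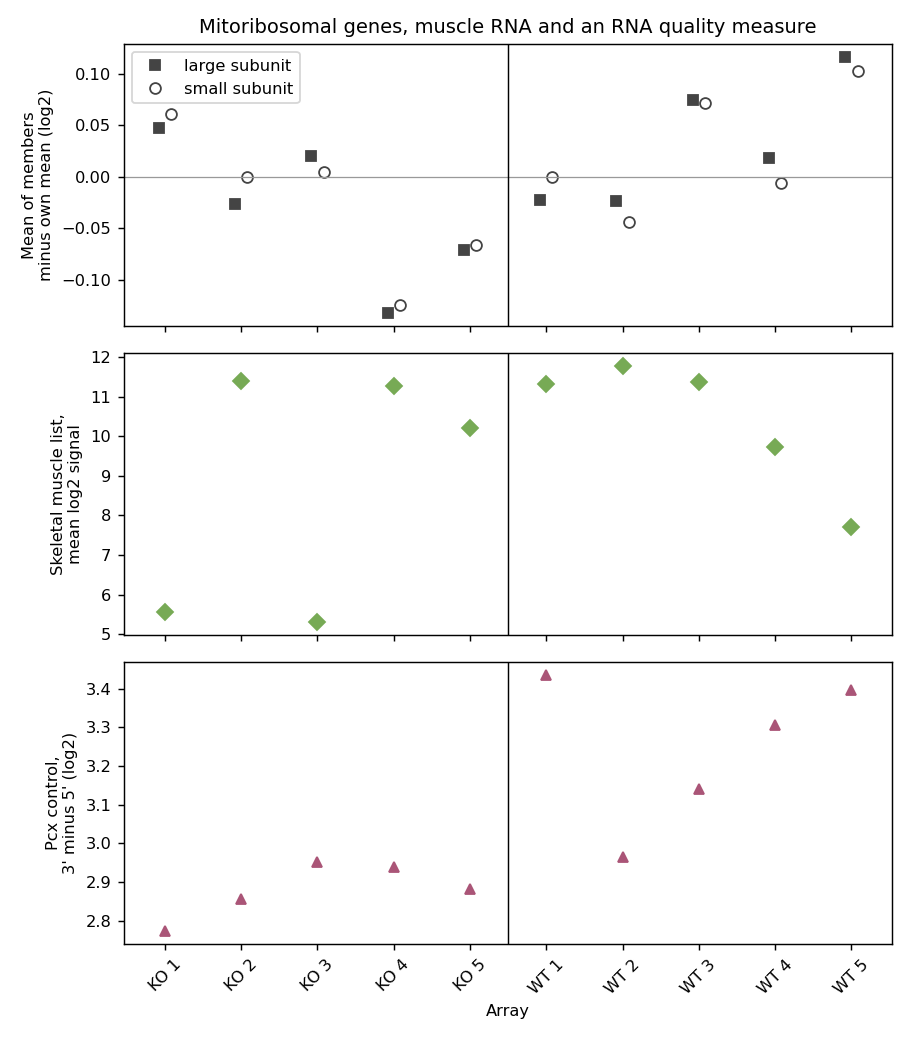
Top, mean over large (squares) and small (circles) subunit genes of the log2 signal minus each gene's own mean; middle, mean log2 signal of 15 skeletal muscle genes; bottom, 3′ minus 5′ log2 signal of the Pcx control, for each KO array (left) and WT array (right). Both subunits are lowest in KO 4 and highest in WT 5, and KO 1 and KO 3 are lowest in muscle transcripts.

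Genes that assemble and serve the mitochondrial ribosome had negative median differences, as did all genes tested, and none passed the test. For the counts of this paragraph and the next, 56.1% of all genes were lower in KO, with a median of -0.013. Among genes with a mean signal of at least 8.23, 59.9% were lower, with a median of -0.021. Of 24 assembly factors 18 were lower in KO (median -0.043), among them Tfb1m, which methylates the ribosomal RNA of the small subunit, at -0.16 ± 0.074, while Mettl15 was at 0.40 ± 0.19. Of 16 translation factors 12 were lower (median -0.020), with Mtif3, an initiation factor, at -0.14 ± 0.071 and Gatb, a subunit of the enzyme that makes glutaminyl-tRNA, at 0.17 ± 0.074. Of 18 mitochondrial aminoacyl-tRNA synthetases 17 were lower (median -0.039), with Ears2 at -0.13 ± 0.065 and Gars, which also serves the cytosol, at -0.12 ± 0.072. A list of 14 genes for mitochondrial transcription and its control also held Polg2, a subunit of the mitochondrial DNA polymerase. Of these 14 genes 12 were lower (median -0.065), with Gabpa, the DNA-binding subunit of GABP, at -0.19 ± 0.097 and Polg2 at -0.20 ± 0.13. At an unadjusted p under 0.05, 1 assembly factor (Tfb1m) was lower and 1 translation factor (Gatb) higher, and 0 genes of the other lists of this paragraph were past that threshold in either direction, where all genes gave 2.83% lower and 1.85% higher.

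Mitoribosomal proteins with other symbols and the products of the ribosome were measured in part. Of 5 such proteins, with Gadd45gip1 at -0.092 ± 0.099 and Oxa1l, the insertase beside the ribosome, at -0.035 ± 0.067, all 5 were lower (median -0.012). The 1 measured mitochondrially encoded gene, ND5, a subunit of complex I, differed by 0.023 ± 0.050. Nuclear-encoded oxidative phosphorylation subunits, whose partners the mitoribosome makes, were lower in 54 of 72 genes with a median of -0.020, with Ndufb1 at -0.12 ± 0.046 and Cox7c at -0.25 ± 0.14. Cytosolic ribosomal protein genes were lower in 39 of 43, with a median of -0.061; of these, Rps27 was at -0.18 ± 0.068 and Rpl37 at -0.19 ± 0.083. At an unadjusted p under 0.05, 1 oxidative phosphorylation gene (Ndufb1) and 2 cytosolic ribosomal protein genes (Rps27, Rpl37) were lower and 0 were higher, against the same shares of all genes. No gene of any of these lists had an adjusted p of limma under 0.05.

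**Figure D5:**
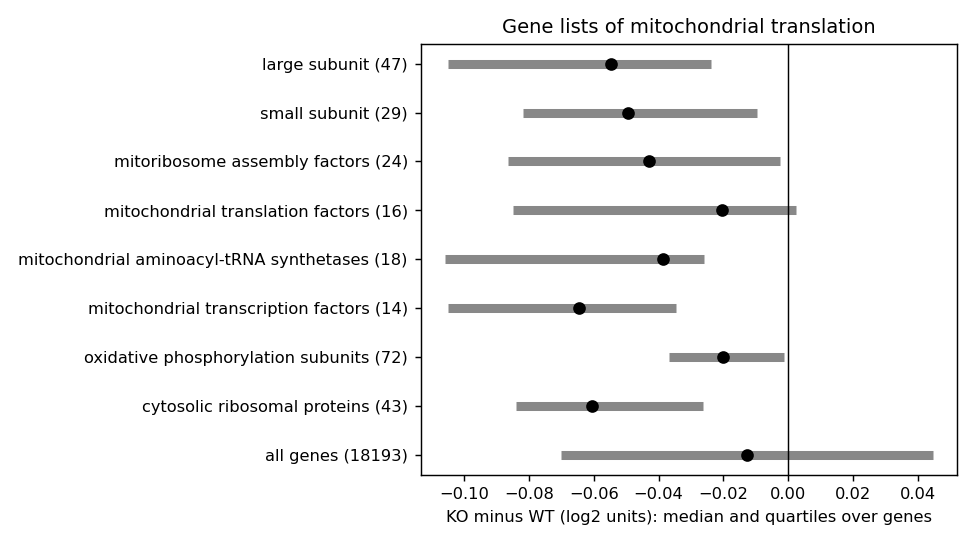
Median (point) and quartiles (bar) over genes of the KO minus WT log2 difference for the mitoribosomal subunits, 6 related gene lists and all genes tested, with the number of genes in brackets; the 5 mitoribosomal proteins with other symbols (median -0.012) and ND5 (0.023) are not drawn. The medians drawn for the subunits and related lists run from -0.065 (the mitochondrial transcription list, which includes Polg2) to -0.020 (translation factors, oxidative phosphorylation), and that of all genes is -0.013.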

How the data were processed

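Brown adipose tissue RNA of 5 KO and 5 WT samples was measured on Affymetrix arrays. The authors deposited log2 signals made with RMA, per the submitters' processing notes. The sources used here name no version of RMA. The range of the values shows the log2 scale. Of 45101 probe sets, 64 were controls, 34945 had 1 gene in the platform annotation, 932 several and 9160 none; only those naming 1 gene were used. Each gene was read by its brightest probe set, which left 18193 genes.

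limma 3.58.1 (lmFit, eBayes; R 4.3.3) fitted KO minus WT without covariates, two-sided, with Benjamini-Hochberg adjustment over all genes and a threshold of 0.05. Named members were the 14 with the smallest p, the 5 higher ones with the smallest p, any with groups that do not overlap, the 2 per subunit with the largest spread within groups, and 9 fixed for their role. Each related list was named by the 2 genes with the smallest p, brown adipocyte and muscle markers serving as a check only. The members and lists were chosen with earlier results of these data known. The exact permutation test of the 5 control transcripts was two-sided over 252 splits. Array number limits the precision.

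The code was tested on simulated data. Alternatives were other normalizations, filters, variance models, array weights, probe set choices, the replicate number as a block, covariates and left-out arrays. The labels do not say whether replicate numbers pair the samples, and the main fit used no pairing. Correlations of same-numbered KO and WT deviations ran from -0.275 to 0.139. Figures were drawn with matplotlib 3.10.9.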

Additional observations from a re-analysis of the deposited data

Results flagged for a closer look

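Of 62 groups of 5 values checked, 4 had 1 array far from the other 4, where chance alone gives about 1 in 20 groups. Mrpl34 was 10.60 in KO 4, against 10.80 in the nearest KO array, and Mrpl3 was 9.725 in KO 4, against 9.835 in the nearest. Mrps6 was 10.75 in KO 5, with the next KO array at 10.55. Mrpl52 was 10.51 in WT 5, with the next WT array at 10.41.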

How the results depend on the processing

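Under all 22 alternatives run for them, 0 genes and 0 members were called. Under these 22, and for the subunits also the assignment by structure, the median differences of all members (-0.080 to -0.026), of the large (-0.080 to -0.027) and of the small subunit (-0.080 to -0.021) stayed negative. Where all 76 members were measured, the number lower ran from 54 (71.1%) to 67 (88.2%), and from 55 to 67 when 1 array was left out. The 54 came with the probe set of largest variance, where 53.8% of all genes were lower. When probe sets with the suffixes _s, _x and _a were dropped, 52 of 62 measured members (83.9%) were lower, and 56.1% of all genes. The median was -0.034 after another quantile normalization. The gap between subunit medians, -0.0053, had no settled sign: it was -0.023 with the Pcx covariate, 0.023 with the probe set of largest variance, 0.0012 with array weights and 0.0011 when a gene's probe sets were averaged, and ran from -0.016 to 0.0083 when 1 array was left out, positive without KO 2 (0.0083) and without KO 5 (0.0051). The number of members lower at an unadjusted p under 0.05, 3 in all, was 1 with the mean of all probe sets, without the suffixed probe sets and with the probe set of largest variance, 17 with the muscle covariate, 0 with the Pcx covariate and 0 to 8 when 1 array was left out: 0 without KO 4 or WT 3, 1 without KO 2, KO 5 or WT 5, 6 without KO 3, 7 without KO 1 and 8 without WT 2. The share of all genes lower at that threshold moved too: it was 2.83%, and 4.89% with the muscle covariate, 0.973% with the Pcx covariate and 2% (without KO 4) to 4.75% (without WT 2) when 1 array was left out. The replicate block gave 3 such members, a median of -0.053 and 0 calls, and changed no other call. Each replicate number had 1 KO and 1 WT array, so this block could not move any KO minus WT difference. Neither could the filter for brighter genes or the trend and robust variance model. Medians and signs of the members were therefore fixed in advance under these settings.

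Of 26 named members 17 kept their sign in all alternatives in which they were measured. With the probe set of largest variance Mrpl1 was at 0.075, Mrpl35 at 0.049, Mrpl47 at 0.0010 and Mrps15 at -0.090; without the suffixed probe sets Mrpl52 was at -0.091; with the muscle covariate Mrps9 was at -0.0014; with the Pcx covariate Mrps6 was at -0.047; and without WT 4 and WT 5 Mrps15 was at -0.0070, Mrps2 at 0.020 and Mrps6 at -0.058. When 1 array was left out Mrps18b ran from -0.0022 (without WT 1) to 0.049, Mrps6 from -0.018 (without WT 4) to 0.20 and Mrps9 from -0.017 (without KO 3) to 0.053. The cause was not tested. The Pcx measure differed by -0.37, by -0.30 without WT 4 and WT 5 (exact permutation, adjusted p = 0.089) and by -0.44 to -0.32 when 1 array was left out, where fewer arrays raise the smallest p that can be reached.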
